A study of Mus musculus with 12 samples.

Results

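Muc6, the secreted gel-forming mucin of gastric glands, is described here with the membrane-bound mucins Muc1, Muc4, Muc13 and Muc20 and the trefoil factors Tff1 and Tff2, in colorectal tumors of mice with and without Stat3 in myeloid cells. The 7 genes were chosen by symbol, after earlier results of the same arrays were known, and Muc6 was among the genes seen to differ between the genotypes. Their own differences are therefore given as descriptions, with standard errors and intervals but no p-value, and nothing is read from how many of them pass the test run over all genes. Of the 7, 6 had a probe set assigned to that symbol alone, 1 each, among 22180 genes with such a probe set. The only probe set naming Muc20 is shared with its neighbour Muc4, so Muc20 has no value of its own. All 6 measured genes passed the filter that removed the dimmest 25% of genes and left 16635.

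All mice carried autochthonous colorectal tumors raised with azoxymethane and dextran sulfate (AOM/DSS), a carcinogen followed by an irritant that inflames the colon. Stat3wt mice were wild type, and in Stat3dm mice Stat3 was conditionally deleted in the myeloid lineage. Laser-capture microdissection separated tumor from stroma in paraffin-embedded tissue, which gave 4 groups of 3 samples: Stat3wt tumor, Stat3dm tumor, Stat3wt stroma and Stat3dm stroma. Each sample pooled 2 tumors of 1 mouse and was read on 1 Affymetrix array. The age and strain of the mice and the driver of the deletion were not given in the sources used here. Values are log2 signals, so a difference of 1 is a doubling, and signals of different probe sets cannot be set against each other. With 3 samples a group, the number of arrays limits the precision of every value. Stat3 itself differed between Stat3dm and Stat3wt by 0.00 ± 0.32 (log2, SE) in stroma and -0.27 ± 0.32 in tumor; where its probe set lies relative to the deleted part is not known, and the deletion concerns 1 cell lineage, so this does not check the labels.

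Mucins are large proteins carrying dense O-linked sugar chains. Gel-forming mucins are secreted and polymerise into mucus: Muc2 builds the mucus of the colon, Muc5ac that of the gastric surface, and Muc6 that of gastric neck and pyloric glands. Membrane-bound mucins stand on the apical face of epithelial cells, where their extracellular part is a barrier and their short cytoplasmic tail can signal. Trefoil factors are small peptides secreted with mucins and known for restitution of injured epithelium: Tff1 accompanies Muc5ac in gastric pit cells, Tff2 accompanies Muc6 in neck and pyloric glands, and Tff3 accompanies Muc2 in goblet cells. The transcription factor STAT3 acts downstream of IL-6, IL-10 and IL-22, the last of which acts on epithelium.

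Muc6 lies on chromosome 7 between Ap2a2 and Muc2 among protein-coding genes (RefSeq annotation of GRCm38.p6). Muc6 is on the minus strand and Muc2 on the plus strand, so the genes point away from each other. The 250 bases before their starts are shown because these neighbouring mucins had differences of opposite sign between the genotypes, and that of Muc13 because it was the only member window with a STAT-type match. Sequences are from RefSeq, GRCm38.p6, read 5′ to 3′ along the gene's strand. Capitals mark matches to TTCNNNGAA, the core letters of a STAT element, or on either strand to AGATA or TGATA, the core letters of a GATA element.
Muc6, chr7:141655394-141655643, minus strand: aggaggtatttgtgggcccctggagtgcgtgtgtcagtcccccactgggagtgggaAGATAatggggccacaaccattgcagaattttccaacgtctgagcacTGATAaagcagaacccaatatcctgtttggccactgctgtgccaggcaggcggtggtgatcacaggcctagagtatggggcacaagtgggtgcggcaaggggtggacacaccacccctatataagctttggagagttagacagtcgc
Muc2, chr7:141690090-141690339, plus strand: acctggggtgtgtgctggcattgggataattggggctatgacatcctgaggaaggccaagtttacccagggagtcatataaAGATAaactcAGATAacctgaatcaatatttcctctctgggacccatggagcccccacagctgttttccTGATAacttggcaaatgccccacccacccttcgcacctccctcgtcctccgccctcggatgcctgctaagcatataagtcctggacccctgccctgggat
Muc13, chr16:33793787-33794036, plus strand: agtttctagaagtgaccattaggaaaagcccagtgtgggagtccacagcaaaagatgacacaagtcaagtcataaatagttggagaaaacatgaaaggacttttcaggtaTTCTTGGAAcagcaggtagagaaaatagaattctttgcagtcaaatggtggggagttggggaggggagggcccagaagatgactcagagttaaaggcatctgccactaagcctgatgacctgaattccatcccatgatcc
The Muc6 window held 2 GATA-type matches and no TTCNNNGAA. The Muc2 window held 3 GATA-type matches and likewise no TTCNNNGAA. The Muc13 window held 1 TTCNNNGAA and no GATA-type match, whereas a further Muc13 start had 3 GATA-type matches in its window. Windows were found for 5 of the 7 members, without Tff1 and Tff2. Among 32851 promoter windows of 300 bases, 8.3% held TTCNNNGAA and 43.8% held a GATA-type match. A match is a run of letters and not a bound site, and a missing match says only that these letters are not in the window.

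Muc6 was lower in Stat3dm than in Stat3wt in both tissues. In Stat3wt tumor its log2 level was 5.84, 6.20 and 6.82 in replicates 1 to 3, and in Stat3dm tumor 4.51, 4.93 and 4.40. In Stat3wt stroma the level was 5.78, 5.60 and 5.12, and in Stat3dm stroma 4.05, 4.32 and 4.43. All 6 Stat3wt samples lay above all 6 Stat3dm samples: the lowest Stat3wt level was 5.12, in stroma, and the highest Stat3dm level was 4.93, in tumor. The same separation was found in 61 genes, 0.367% of those tested, and Muc6 was the only one of the 6 measured members with it. Since Muc6 was picked for this pattern, nothing follows from that share.

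The group means of Muc6 were 6.29 ± 0.49 (SD, n = 3) in Stat3wt tumor, 5.50 ± 0.34 in Stat3wt stroma, 4.61 ± 0.28 in Stat3dm tumor and 4.27 ± 0.20 in Stat3dm stroma. In that order, neighbouring groups stood clear of each other, by a narrow margin between Stat3wt tumor and Stat3wt stroma, except the Stat3dm groups, which overlapped. Stat3dm minus Stat3wt was -1.68 ± 0.26 (log2, SE; 95% interval -2.24 to -1.11) in tumor, 3.19-fold lower. In stroma it was -1.24 ± 0.26 (-1.80 to -0.67), 2.36-fold lower. The stromal minus the tumor difference was 0.44 ± 0.37 (SE), and it ranged from -0.18 with array weights to 0.66 without Stat3wt tumor 1, with 0.17 without Stat3wt tumor 3 and 0.25 without Stat3wt stroma 3. In these bulk samples, fewer cells with Muc6 and less Muc6 RNA per cell cannot be told apart. No array left out and no other processing turned the sign of either Muc6 difference. The stromal value then ranged from -1.43 to -1.10, and the tumor value from -1.90 without Stat3wt tumor 1 to -1.05 with array weights.

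**Figure D1:**
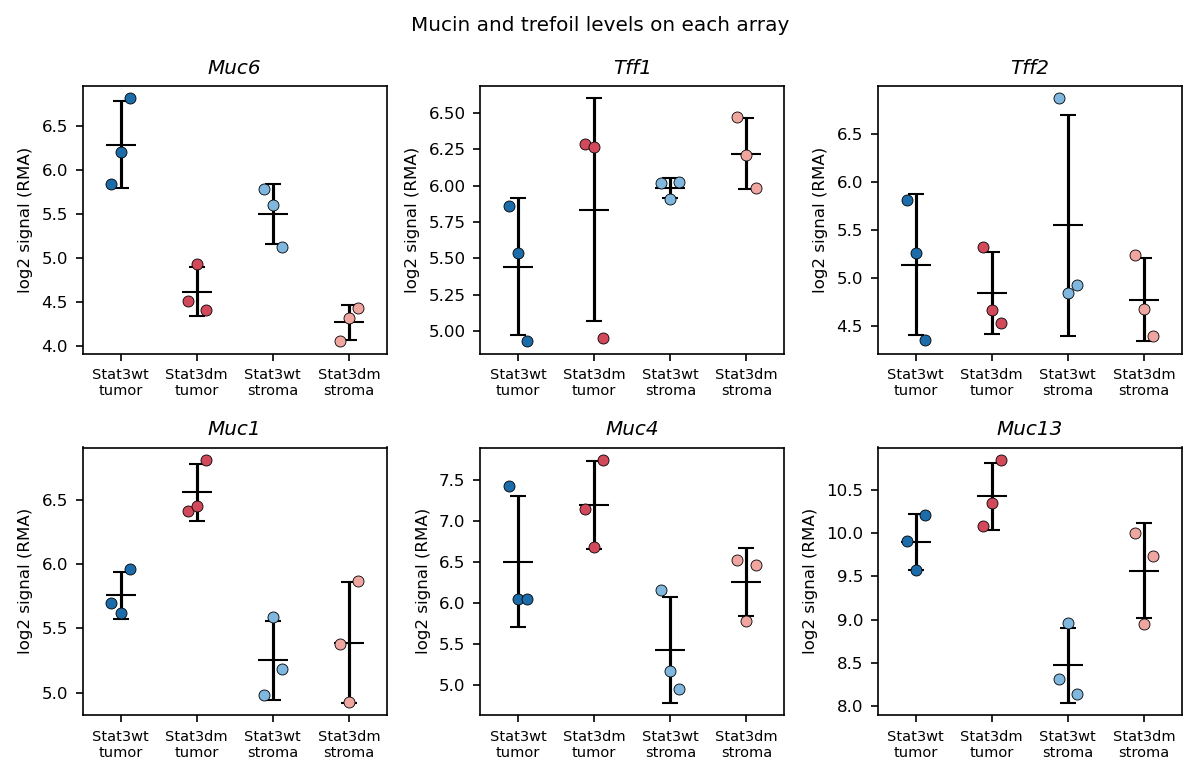
Log2 signal of the 6 measured members in each of the 12 samples, by genotype and tissue, with points for samples, horizontal lines for group means and bars for ± SD (n = 3); each panel has its own vertical scale. Muc6 is separated by genotype in both tissues, Muc1 in tumor only, and the Tff2 points of Stat3wt stroma are spread by 1 sample at 6.87.

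The other gel-forming mucins did not show the Muc6 pattern. Muc2, next to Muc6 on the chromosome, had group means of 10.97 ± 0.21 (SD, n = 3) in Stat3wt tumor, 11.44 ± 0.54 in Stat3dm tumor, 9.78 ± 0.56 in Stat3wt stroma and 10.71 ± 0.90 in Stat3dm stroma. Its genotype difference was 0.92 ± 0.40 (log2, SE) in stroma and 0.46 ± 0.40 in tumor, with overlapping groups and adjusted p-values of 0.944 and 0.823 (limma, Benjamini-Hochberg over all genes tested). Muc5b, a mucin of airway and salivary glands, differed by -0.16 ± 0.28 in stroma and 0.20 ± 0.28 in tumor. Muc19, a salivary mucin, differed by 0.36 ± 0.21 in stroma, where the groups did not overlap, and by 0.29 ± 0.21 in tumor. None of these passed the test. Muc5ac had a probe set but fell below the filter, with signals from 2.97 to 3.55 over all samples.

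Of the membrane-bound mucins, Muc1 was higher in Stat3dm in tumor. Muc1, a widely expressed epithelial mucin with a signalling tail, was at 5.69, 5.62 and 5.96 in Stat3wt tumor and at 6.41, 6.45 and 6.81 in Stat3dm tumor, so the groups did not overlap. The difference was 0.80 ± 0.25 (log2, SE; 0.27 to 1.33), 1.74-fold higher. In stroma Muc1 was at 4.98, 5.59 and 5.19 in Stat3wt and at 5.37, 4.93 and 5.87 in Stat3dm. The stromal groups overlapped, with a difference of 0.14 ± 0.25 (-0.40 to 0.67) that ranged from -0.10 without Stat3dm stroma 3 to 0.37 without Stat3dm stroma 2. The interaction of genotype and tissue was -0.66 ± 0.35.

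Muc4, a large membrane mucin that binds ErbB2, had higher means in Stat3dm in both tissues with overlapping groups. It was at 7.43, 6.05 and 6.05 in Stat3wt tumor and at 7.15, 6.68 and 7.75 in Stat3dm tumor. In stroma it was at 6.17, 5.17 and 4.96 in Stat3wt and at 6.52, 5.79 and 6.47 in Stat3dm. The high Stat3wt tumor sample, replicate 1, sets much of the tumor value. The tumor difference was 0.69 ± 0.41 (log2, SE; -0.18 to 1.55) with that sample, 1.15 without it, and -0.45 with array weights, which gave that array the highest weight. The stromal difference was 0.83 ± 0.41 (-0.04 to 1.70).

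Muc13, the transmembrane mucin prominent on colonic epithelium, had higher means in Stat3dm as well. In stroma it was at 8.31, 8.96 and 8.14 in Stat3wt and at 10.01, 8.95 and 9.74 in Stat3dm, which makes the groups touch at Stat3wt stroma 2 and Stat3dm stroma 2. The stromal difference was 1.10 ± 0.31 (log2, SE; 0.44 to 1.76), 2.14-fold higher. In tumor it was at 9.91, 9.58 and 10.22 in Stat3wt and at 10.08, 10.35 and 10.86 in Stat3dm, with a difference of 0.53 ± 0.31 (-0.13 to 1.19). The tumor groups overlapped. Among the other membrane-bound mucins, Muc3, an intestinal brush-border mucin, differed by 1.98 ± 0.42 in stroma, 3.95-fold higher with groups apart and an adjusted p of 0.256 (limma), and by 1.04 ± 0.42 in tumor. Muc3a differed by 1.21 ± 0.34 in stroma, again with groups apart, and by 0.59 ± 0.34 in tumor. Muc3 and Muc3a are close relatives whose probes may read both, so their separate values are uncertain. Muc15 and Muc16 had probe sets but fell below the filter.

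The gastric trefoil factors showed no separation between the genotypes. Tff1 was at 5.86, 5.54 and 4.93 in Stat3wt tumor and at 6.29, 6.27 and 4.95 in Stat3dm tumor. In stroma it was at 6.02, 5.91 and 6.03 in Stat3wt and at 6.47, 6.21 and 5.98 in Stat3dm. The low value of each tumor group came from replicate 3, and those arrays had the widest spread of signals of the 12. The tumor difference was 0.39 ± 0.33 (log2, SE; -0.30 to 1.09). It was 0.05 with the array's spread as a covariate and 0.84 without Stat3dm tumor 3. The stromal difference was 0.24 ± 0.33 (-0.46 to 0.93).

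Tff2, the trefoil made with Muc6 in gastric glands, was at 5.81, 5.26 and 4.35 in Stat3wt tumor and at 5.32, 4.66 and 4.53 in Stat3dm tumor. In stroma it was at 6.87, 4.84 and 4.92 in Stat3wt and at 5.24, 4.68 and 4.39 in Stat3dm. The Stat3wt stroma mean rests on replicate 1. The stromal difference was -0.77 ± 0.48 (log2, SE; -1.80 to 0.25) with that sample and -0.11 without it. The tumor difference was -0.30 ± 0.48 (-1.33 to 0.73), and 0.03 without Stat3wt tumor 1. Tff3, the goblet cell trefoil, differed by 0.79 ± 0.35 in stroma and 0.34 ± 0.35 in tumor, and passed the test in neither.

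**Figure D2:**
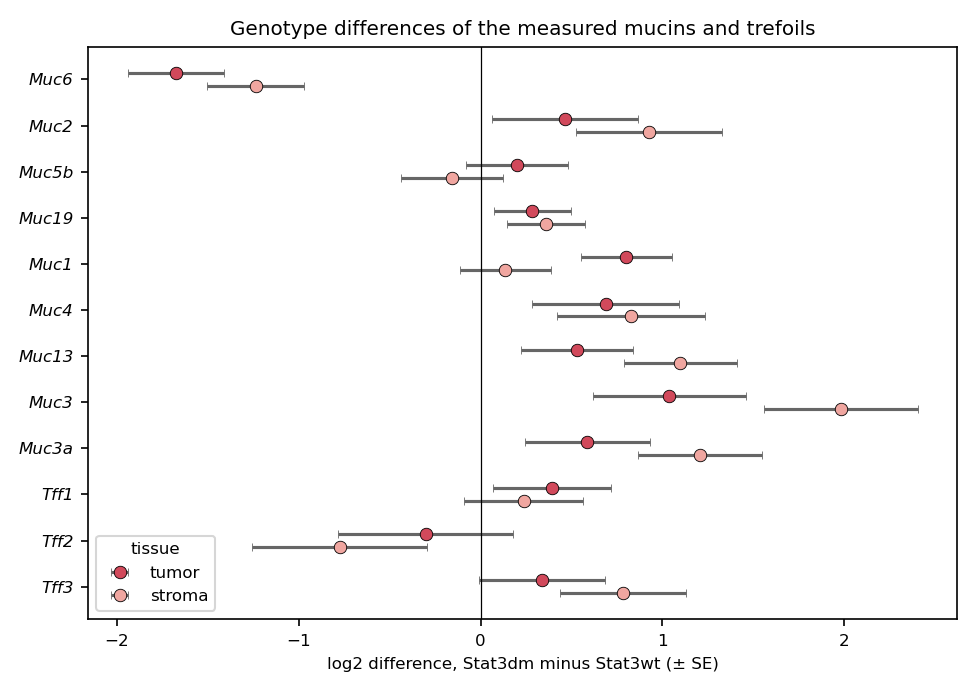
Log2 difference Stat3dm minus Stat3wt (horizontal axis) of the 6 measured members and the 6 other tested mucins and trefoils, with 1 point for tumor and 1 for stroma and bars for ± 1 SE of the limma fit over 12 arrays. Muc6 lies lowest in both tissues, at -1.68 and -1.24, and Muc3 in stroma lies highest, at 1.98.

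No member passed an adjusted p of 0.05 in the limma fit in any of the 5 contrasts. In stroma, 0 of 6 members passed between the genotypes, beside 0% of all genes tested, with 844 genes at an unadjusted p under 0.05. In tumor, 0 of 6 members passed beside 0.0180% of all genes (3 genes, with 1042 at an unadjusted p under 0.05). The tumor count was 1, Muc6, with the replicate number as a block, among 89 genes. It was also 1 without Stat3wt tumor 1 or without Stat3wt stroma 1, among 7 genes each. Since Muc6 was picked by this contrast, these counts are no support for its difference. In the interaction of genotype and tissue, 0 of 6 members passed beside 0% of all genes, with 401 at an unadjusted p under 0.05.

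Counted by groups that did not overlap, 1 of 6 members, Muc6, was lower in Stat3dm stroma, beside 5.62% of all genes, and 0 were higher, beside 5.13%. In tumor, Muc6 was the 1 member lower, beside 5.46%, and Muc1 the 1 member higher, beside 4.05%. Muc6 was also the 1 member apart and lower in both tissues, beside 1.11% of all genes (184 genes), and no member was apart and higher in both, beside 0.613%. By size, the Muc6 difference was the 29th lowest of 16635 in stroma and the 34th lowest in tumor. The members were chosen by these contrasts, so the shares are given for scale only.

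Between the tissues, the means of Muc6, Muc1, Muc4 and Muc13 were lower in stroma in both genotypes, and the trefoils' differences moved with single arrays. In Stat3wt, stroma minus tumor was -1.43 ± 0.31 (log2, SE) for Muc13, -1.08 ± 0.41 for Muc4, -0.78 ± 0.26 for Muc6 and -0.50 ± 0.25 for Muc1. Tff1 was higher in stroma by 0.54 ± 0.33, without overlap, and Tff2 differed by 0.41 ± 0.48. Without Stat3wt tumor 3 these were 0.28 for Tff1 and 0.02 for Tff2, and without Stat3wt stroma 1 that of Tff2 was -0.25. With array spread as a covariate Tff1 was at -0.06, and with array weights Tff2 was at -0.62. Without Stat3wt tumor 1, Muc4 was at -0.62, and without Stat3wt tumor 3, Muc6 was at -0.52. Muc1, Muc6 and Muc13, 3 of 6 members, were apart and lower, beside 15.0% of all genes, and Tff1 was the 1 member apart and higher, beside 8.88%. None of the 6 passed the test, beside 0% of all genes, with 2783 at an unadjusted p under 0.05.

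In Stat3dm, stroma minus tumor was -1.17 ± 0.25 (log2, SE) for Muc1, -0.94 ± 0.41 for Muc4 and -0.86 ± 0.31 for Muc13, which made 3 of 6 members apart and lower, beside 7.16% of all genes. Muc6 differed by -0.35 ± 0.26, Tff1 by 0.39 ± 0.33 and Tff2 by -0.07 ± 0.48, all with overlapping groups, and no member was apart and higher, beside 6.57%. Without Stat3dm tumor 3, Tff1 was at -0.06, and Tff2 ranged from -0.30 without Stat3dm stroma 1 to 0.18 without Stat3dm tumor 1. Muc6 was at -0.19 without Stat3dm tumor 2, and Muc13 at -0.55 without Stat3dm stroma 2. None of the 6 passed the test, beside 0% of all genes, with 1610 at an unadjusted p under 0.05. With the replicate number as a block, 2 members, Muc1 and Muc4, passed, among 152 genes.

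The epithelial markers moved with the tissue, and stroma samples still carried epithelial signal. The 13 epithelial markers, among them Epcam, Cdh1 and Krt8, averaged 9.08 ± 0.31 (log2, SD, n = 3) in Stat3wt tumor, 8.99 ± 0.37 in Stat3dm tumor, 7.97 ± 0.23 in Stat3wt stroma and 8.05 ± 0.70 in Stat3dm stroma. The 11 fibroblast markers, which include Col1a1 and Dcn, averaged 7.04 to 7.75 in Stat3wt tumor and 7.52 to 8.65 in Stat3wt stroma, and 6.97 to 7.33 and 7.35 to 8.36 in the matching Stat3dm groups. All 13 epithelial markers had lower means in stroma in both genotypes, with medians of -1.04 in Stat3wt and -0.93 in Stat3dm. Between the genotypes their medians were 0.16 in stroma and 0.11 in tumor, but single markers went both ways, from -1.23 to 1.42 in stroma and from -1.74 to 0.50 in tumor. Cldn4, a tight junction claudin, was lowest of them in both tissues. Cldn4 and Krt18 were the 2 of 13 apart and lower in each, beside 5.62% of all genes in stroma and 5.46% in tumor. Each array was also centred on these markers, an alternative chosen after seeing the data. Muc6 in Stat3dm minus Stat3wt was then -1.31 ± 0.46 (log2, SE) in stroma and -1.58 ± 0.46 in tumor. Without centring the SE was 0.26 in each tissue. With the same centring, stroma minus tumor in Stat3wt became 0.33 for Muc6, 0.61 for Muc1, 0.04 for Muc4, -0.32 for Muc13, 1.65 for Tff1 and 1.52 for Tff2. In Stat3dm it became 0.60 for Muc6, -0.22 for Muc1, 0.01 for Muc4, 0.08 for Muc13, 1.33 for Tff1 and 0.88 for Tff2. That centring removes the markers' own tissue difference by construction.

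Averages of goblet cell and colonocyte markers were higher in Stat3dm stroma, although no marker of either list passed the limma test between the genotypes. The 10 goblet cell markers averaged 6.57 to 7.31 in Stat3wt stroma and 7.43 to 8.68 in Stat3dm stroma, and 7.97 to 8.27 and 8.18 to 8.81 in the matching tumor groups. The 10 colonocyte markers averaged 5.67 to 6.18 in Stat3wt stroma and 6.40 to 8.36 in Stat3dm stroma, and 6.41 to 7.02 and 7.35 to 7.60 in tumor. Both averages were thus separated by genotype in stroma, and in tumor that of colonocytes but not that of goblet cells. The leukocyte markers averaged 5.65 to 6.60 in Stat3wt stroma and 6.82 to 7.32 in Stat3dm stroma, and in tumor 5.47 to 5.88 and 5.55 to 5.78, which overlapped.

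The Paneth cell markers had lower means in Stat3dm in both tissues, and none passed the test. Of 8 listed, 6 had probe sets, and all 6 were below 0 in Stat3dm minus Stat3wt in both tissues, with medians of -1.62 in stroma and -1.29 in tumor. Apart and lower were 3 of the 6 in stroma, beside 5.62% of all genes, and 1 in tumor, beside 5.46%. The tumor median rests much on 1 array: it was -0.52 without Stat3dm tumor 1, in which these markers averaged 6.53 against 9.09 and 8.78 in the other Stat3dm tumor samples. With each array left out in turn, an alternative chosen after seeing the data, all 6 stayed below 0, with medians from -2.13 to -1.33 in stroma and from -1.77 to -0.52 in tumor. Ang4, a Paneth and goblet cell antimicrobial ribonuclease, differed by -2.03 ± 0.58 (log2, SE) in stroma and -1.23 ± 0.58 in tumor, with groups apart in each and limma adjusted p-values of 0.546 and 0.80. The Paneth averages were 6.87 to 8.94 in Stat3wt stroma and 6.42 to 7.07 in Stat3dm stroma, and 8.80 to 10.43 and 6.53 to 9.09 in tumor. These stromal ranges overlapped, as did those of tumor. The part of any of these cell types in the members' differences was not tested.

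The 5 neck and pyloric markers, which include Muc6 and Tff2, averaged 4.92 in Stat3wt tumor, 4.54 in Stat3dm tumor, 4.96 in Stat3wt stroma and 4.56 in Stat3dm stroma. The 6 pit cell markers averaged 4.70 to 4.95 over the groups, and the 6 chief and parietal markers 4.10 to 4.39. Squamous markers averaged 4.46 to 4.76 and pancreatic acinar markers 4.36 to 4.67. Of the neck and pyloric markers that are no members, Aqp5, a water channel of pyloric glands, differed between the genotypes by -0.14 in stroma and -0.01 in tumor, Gkn3, a gastrokine, by -0.12 and -0.14, and A4gnt by 0.24 in each. The values carry no detection call, so whether these signals are above background is not known, and the part of such cells was not tested.

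The rest of the mucin pathway was followed in 7 lists, which held 145 genes besides the members, of which 123 were tested. The lists were chosen with earlier results of these data known, so their shares, here and between the tissues, are for scale only. None of the 123 passed the limma test in any of the 5 contrasts. At an unadjusted p under 0.05 there were 18 in stroma and 12 in tumor between the genotypes, beside 844 and 1042 of 16635 genes. There were 5 in the interaction, beside 401 of all genes. Between the tissues there were 31 in Stat3wt and 20 in Stat3dm, beside 2783 and 1610. With the replicate number as a block, 2 list genes passed between the genotypes in tumor, beside 89 of all genes. The block gave 2 between the tissues in Stat3dm, beside 152. Without Stat3wt stroma 2, 1 passed between the genotypes in stroma, beside 2 of all genes, and 1 between the tissues in Stat3wt, beside 8. Between the genotypes in stroma, 17 (13.8%) were apart and higher in Stat3dm, beside 5.13% of all genes, and 4 (3.25%) lower, beside 5.62%. In tumor 12 (9.76%) were higher, beside 4.05%, and 5 (4.07%) lower, beside 5.46%. Their median difference was 0.15 in stroma and 0.13 in tumor, beside -0.02 and -0.01 over all genes tested. Of the 123, 0 were apart and lower in both tissues, which is near the 1.11% of all genes, and 5 (4.07%) were apart and higher in both, beside 0.613%: A4gnt, St3gal4, Chst4, Nlrp6 and Slc26a3.

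Among 37 tested enzymes that build O-linked glycans, 30 were above 0 in Stat3dm minus Stat3wt in stroma, with a median of 0.16, and 26 in tumor, with a median of 0.20. St3gal4, a sialyltransferase, differed by 1.17 ± 0.38 (log2, SE) in stroma and 1.09 ± 0.38 in tumor. Chst4, which sulfates GlcNAc, differed by 0.74 ± 0.27 and 0.72 ± 0.27. B3gnt7, which extends poly-lactosamine and keratan sulfate chains, differed by 1.06 ± 0.42 in stroma and 0.76 ± 0.42 in tumor, and B4galnt2, which makes the Sd(a) antigen, by 1.40 ± 0.49 and 0.82 ± 0.49. A4gnt, which adds the terminal alpha1,4-linked GlcNAc carried by Muc6 in gastric glands, differed by 0.24 in each tissue, opposite in sign to Muc6. Its signals ran from 3.90 to 4.59, near the filter at 3.65, and whether they are above background is not known.

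Of 29 tested genes for mucin folding, packaging and release, 22 were above 0 in stroma, with a median of 0.36, and 19 in tumor, with a median of 0.18. Zg16, a lectin of goblet cell mucus, differed by 2.75 ± 0.44 (log2, SE) in stroma, 6.73-fold higher, with an adjusted p of 0.0956 (limma), and by 0.44 ± 0.44 in tumor. Slc26a3, the chloride and bicarbonate exchanger of colonocytes, differed by 2.09 ± 0.47 in stroma and 1.60 ± 0.47 in tumor. Fcgbp, a goblet cell protein bound to Muc2, differed by 1.98 ± 0.51 in stroma and 0.27 ± 0.51 in tumor. Nlrp6, linked to goblet cell secretion, differed by 0.93 ± 0.30 in stroma and by 1.57 ± 0.30 in tumor, with an adjusted p of 0.108 in tumor. Vamp8, a secretory granule SNARE, differed by 0.39 ± 0.22 in stroma and by -0.47 ± 0.22 in tumor, with groups apart in opposite directions. None of these passed the test.

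The list of 30 tested gastric genes had no common direction, with 14 above 0 in stroma (median -0.04) and 20 in tumor (median 0.12). Onecut2, a transcription factor, differed by -0.77 ± 0.27 (log2, SE) in stroma and -0.56 ± 0.27 in tumor. Duox2, an epithelial oxidase, differed by 0.89 ± 0.34 and 0.45 ± 0.34, and Pdx1, the factor of antrum and duodenum, by -0.35 ± 0.25 and 0.13 ± 0.25. Krt7, a keratin, differed by -0.50 ± 0.31 in stroma and -0.97 ± 0.31 in tumor. Slc9a4, a sodium/proton exchanger of gastric glands, differed by -0.04 ± 0.23 and -0.79 ± 0.23, and Cdx1, an intestinal homeobox factor, by 0.14 ± 0.27 and 0.72 ± 0.27. Of 22 tested regulators and cytokine inputs, 15 were above 0 in stroma and 9 in tumor. Ifng differed by 0.53 ± 0.28 in stroma and 0.13 ± 0.28 in tumor, Tgfa by -0.36 ± 0.24 and -0.64 ± 0.24, and Tnf by 0.42 ± 0.31 and -0.42 ± 0.31.

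**Figure D3:**
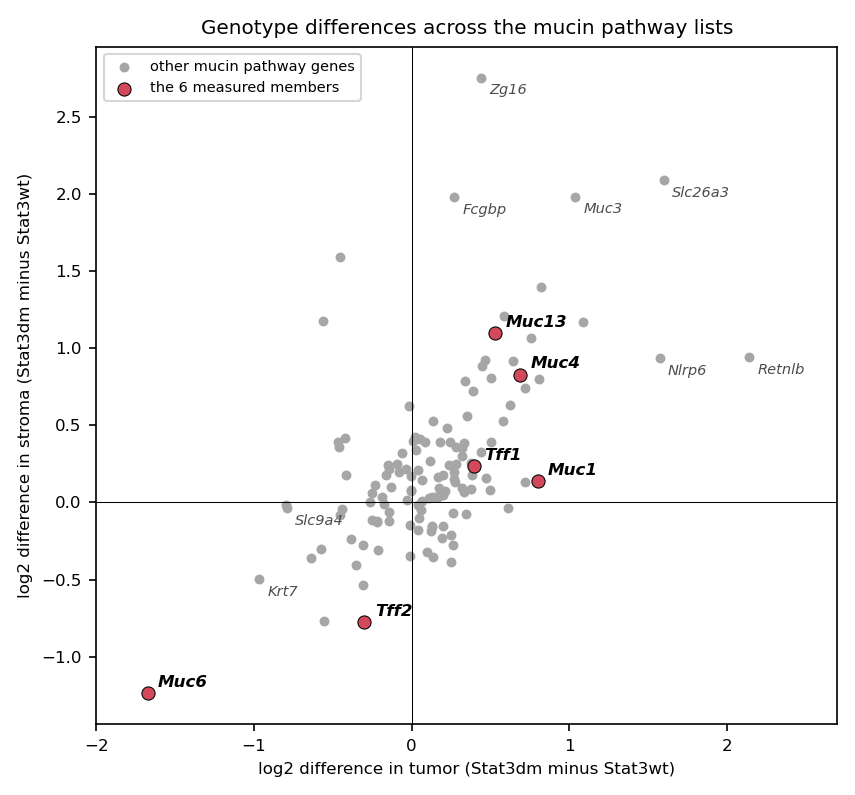
Log2 difference Stat3dm minus Stat3wt in stroma (vertical axis) against that in tumor (horizontal axis), 1 point a gene, with the 6 measured members in red and the 123 tested list genes in grey. Muc6, picked for its genotype difference, lies at -1.24 in stroma and -1.68 in tumor, so its place away from the list genes is no separate result. Of the list genes, 17 (13.8%) are apart and higher in Stat3dm stroma, beside 5.13% of all genes, and 4 (3.25%) lower, beside 5.62%.

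Between the tissues in Stat3wt, 38 of the 123 list genes (30.9%) were apart and lower in stroma, beside 15.0% of all genes, and 5 (4.07%) higher, beside 8.88%, with a median of -0.27. Zg16 differed by -2.41 ± 0.44 (log2, SE), Fcgbp by -1.98 ± 0.51 and Clca1, a goblet cell mucus protein, by -1.83 ± 0.49. Among the glycan enzymes, Fut2, which adds fucose to mucins, differed by -1.48 ± 0.34, B4galnt2 by -1.41 ± 0.49 and C1galt1, the core 1 synthase, by -1.08 ± 0.33. Of the gastric list, Duox2 differed by -1.41, Ctse by -1.35 and Krt7 by -0.93, and of the regulators Erbb3 by -1.09, Il22ra1 by -0.86 and Erbb2 by -0.73. Tff3 differed by -1.30, Muc2 by -1.19 and Muc3a by -0.58. In Stat3dm, 14 (11.4%) were apart and lower, beside 7.16% of all genes, and 8 (6.5%) higher, near the 6.57% of all genes, with a median of -0.15. Fut2 there differed by -1.18 ± 0.34, Galnt12, which starts O-glycans, by -1.01 ± 0.32 and B3gnt3 by -0.89 ± 0.28. Foxa1 differed by -0.94, Cdx1 by -0.88, Tff3 by -0.85, Duox2 by -0.97 and Gata6 by -0.47, while Il1b was higher by 1.87 ± 0.78, Il6ra by 0.75 ± 0.25 and Ifng by 0.55 ± 0.28, none passing the test.

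By level, the other members ordered differently from Muc6. Muc1 had its highest mean in Stat3dm tumor, 6.56 ± 0.22 (log2, SD, n = 3), clear of Stat3wt tumor at 5.76 ± 0.18, and the remaining neighbours in the order, Stat3dm stroma at 5.39 ± 0.47 and Stat3wt stroma at 5.25 ± 0.31, overlapped. Muc4 ran from 7.19 ± 0.54 in Stat3dm tumor over 6.51 ± 0.80 and 6.26 ± 0.41 to 5.43 ± 0.65 in Stat3wt stroma, and Muc13 took the same order from 10.43 ± 0.39 over 9.90 ± 0.32 and 9.57 ± 0.55 to 8.47 ± 0.44. In both, each group overlapped the next. Tff1 was highest in Stat3dm stroma, 6.22 ± 0.24, then Stat3wt stroma, 5.98 ± 0.07, Stat3dm tumor, 5.84 ± 0.77, and Stat3wt tumor, 5.44 ± 0.47, and Tff2 ran from 5.55 ± 1.15 in Stat3wt stroma over 5.14 ± 0.73 in Stat3wt tumor and 4.84 ± 0.43 in Stat3dm tumor to 4.77 ± 0.43 in Stat3dm stroma. Neighbouring groups of both trefoils overlapped.

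Over the 12 arrays, the tested genes most like Muc6 were Septin8 (Pearson r = 0.95), Svopl (0.94), R3hdml (0.94) and Avil (0.93), taken as the 4 highest correlations. After the group means were removed, the same correlations were 0.72, 0.49, 0.73 and 0.69. Each of the 4 was lower in Stat3dm in both tissues: Avil, an actin-binding protein of tuft cells, differed by -0.74 in stroma and -0.92 in tumor, and R3hdml by -1.20 and -1.28. That direction follows from choosing them by correlation with Muc6, so it is no separate result. Samples of 4 groups share genotype, tissue and array spread, so these correlations describe these arrays only.

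**Figure D4:**
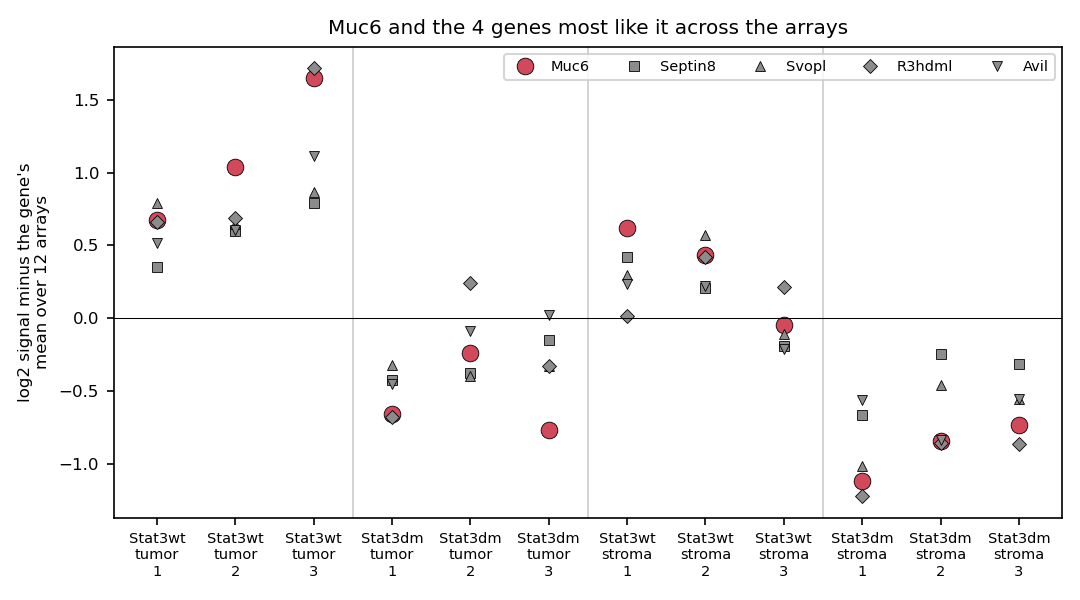
Log2 signal of Muc6 and of the 4 genes most correlated with it, each relative to its own mean over the 12 arrays, by sample. The 5 genes are higher in the Stat3wt samples and lower in the Stat3dm samples of each tissue, a direction set by choosing the 4 for likeness to Muc6.

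Among the members, Muc1 and Muc13 were the most alike (r = 0.84 over 12 arrays, and 0.80 within groups), followed by Muc4 and Muc13 (0.78, and 0.31 within groups). Muc6 had r between -0.53 and 0.22 with the other 5. Genes most like Muc13 were Tspan1 (0.98), Dmbt1 (0.97), Adgrg7 (0.96) and Mfsd6 (0.96), and those most like Muc1 were Usp43 (0.97), Cd177 (0.96), Fgfbp1 (0.94) and Nans (0.94). Those most like Muc4 were Trim40 (0.96), Plet1, Mall and Txn1 (0.94 each). Tff1 was most like En1 (0.97), Prrg3 (0.95), Sv2c (0.94) and Slc7a14 (0.94), and Tff2 most like Serpinb9b, Tnnt2 and Fam178b (0.89, 0.89 and 0.88) and Dbndd2 (0.87). For both trefoils these correlations were of like size within groups, 0.87 or more.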

How the data were processed

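The deposited table holds RMA log2 values of 41345 probe sets on 12 Affymetrix arrays, which the authors made in Affymetrix Expression Console. The submitters' processing notes name version 1.3.1 and no genome build. RNA was taken from laser-captured paraffin tissue, amplified and labelled, per the labels' protocols. Amplified RNA of fixed tissue can differ in quality between arrays: array SDs ran from 1.60 to 1.91, and correlations within groups from 0.881 to 0.967. No array was left out of the main results.

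Gene symbols came from the platform annotation: 23521 had 1 symbol, 1814 several, and 16010 were not listed. Symbols were looked up in RefSeq (GRCm38.p6), which held 23328. For each of 22180 genes the single-symbol probe set with the highest mean over all arrays was kept (1082 genes had several), and the dimmest 25%, below 3.65, were left out. limma 3.58.1 (R 4.3.3) fitted a mean for each group over all 12 arrays, with 5 contrasts, lmFit, eBayes and Benjamini-Hochberg adjustment over 16635 genes, and was tested on simulated data. Python 3.11.15 was used for tables and promoter letters. The labels give each sample as tumors of 1 mouse but do not say which samples share a mouse.

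The members, the pathway lists and the marker lists were chosen with earlier results of these data known. Named list genes are, for each list and contrast, the 3 with the largest difference whose groups did not overlap, with every other gel-forming mucin, membrane-bound mucin and trefoil that has a probe set; likeness names the 4 highest correlations, passing over predicted genes, receptors of smell, small RNAs and immune receptor segments. Stat3, Aqp5, Gkn3, A4gnt, Ang4, Cldn4 and Krt18 were named after their values were seen.

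Groups share replicate numbers. Same-numbered deviations from the group means correlated at 0.317, 0.150 and 0.692 between the tumor groups and at 0.123, 0.157 and 0.298 between tumor and stroma of Stat3dm, all above 0.1, so those contrasts are also given with the number as a block. Between tumor and stroma of Stat3wt they were 0.439, -0.004 and 0.512, and between the stroma groups 0.152, -0.040 and 0.113. Not all of these were above 0.1, so for those contrasts the block is given only among the alternatives. A low value for 1 number does not show that the samples are unpaired, and the labels do not say what a number marks.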

Additional observations from a re-analysis of the deposited data

How the results depend on the processing

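The members' differences and the counts of members and list genes passing were recomputed under 23 alternatives, 22 planned and 1, centring on the epithelial markers, chosen after seeing the data. Group levels were recomputed under 3 of them, and marker averages, ranks, counts of separate groups and correlations were not, except that the Paneth marker medians were recomputed with each array left out. Of 690 recomputed member differences, 665 moved by less than 1 SD and 25 by more, and 32 turned sign, none of them a Muc6 genotype difference. Many of the 690 could not move. A contrast of 2 groups keeps its estimate when an array of another group is left out. The blocks, the robust spread, the missing filter and the mean over probe sets also leave a member's estimate as it was. The 665 therefore do not measure how stable the differences are. Of 72 recomputed group levels, 71 moved by less than 1 SD. Members passing in limma were 0 in each contrast as reported. With array weights they became 1 in the stromal genotype contrast, among 164 of the 16635 genes tested. They became 3 (Muc1, Muc6 and Tff2) in the tumor one, among 1579. Between tissues they became 2 in Stat3wt, among 3963, and 1 in Stat3dm, among 727. With array spread as a covariate they became 1 in the tumor genotype contrast, among 14 genes, and 1 between tissues in Stat3dm, among 114. A robust, trended spread gave 1 in the tumor genotype contrast, among 5 genes. Leaving out 1 array gave 0 to 1 in the tumor genotype contrast, and the 1 was among 7 genes. With a fixed replicate block they became 1 in the tumor genotype contrast, among 89 genes. Between tissues the fixed block gave 2 in Stat3wt (Muc4 and Muc13), among 138, and 2 in Stat3dm, among 152. With a random replicate block 1 passed between tissues in Stat3dm, among 62. Neither block changed another member call. The fixed block joined same-numbered samples of all groups for the genotype contrasts, and those within each genotype for the other contrasts. The random block joined only tumor and stroma of the same genotype, so it does not link the genotypes. With epithelial centring, members passing became 2 between tissues in Stat3wt (Tff1 and Tff2), beside 9180 of the 16635 genes tested. In Stat3dm 1 passed (Tff1), beside 1817.

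List genes passing were 0 of 123 as reported. Counts are in the order stromal genotype, tumor genotype, tissue in Stat3wt and tissue in Stat3dm. Array weights gave 3, 12, 42 and 6, beside 164, 1579, 3963 and 727 of the 16635 genes tested. Array spread as a covariate gave 1 in each genotype contrast, beside 13 and 14 of all genes. A fixed replicate block gave 2, 2, 6 and 2. A random replicate block gave 1 between tissues in Stat3wt, beside 5 of all genes. Epithelial centring gave 4, 1, 50 and 10, beside 34, 26, 9180 and 1817 of all genes. Leaving out 1 array gave 0 to 1 in the stromal genotype contrast and 0 to 1 between tissues in Stat3wt. In each case 1 passed without Stat3wt stroma 2, beside 2 and 8 of all genes. Over all genes, the fixed block called 28, 89, 138 and 152 in the same order of contrasts. The estimation of the array weights stopped before it converged, with weights from 0.258 to 7.80, and centring on epithelial markers subtracts their tissue difference by construction; for the others the cause was not tested. Arrays give no counts; signals near the filter have no known distance from background.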
